A study of Mus musculus with 10 samples.

Results

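The desmosome genes described here are 10 mouse genes chosen by name: the desmocollins Dsc1, Dsc2 and Dsc3, the desmogleins Dsg1a, Dsg1b, Dsg2 and Dsg3, and the plaque genes Dsp, Jup and Pkp1. Each had 1 row, found by its Ensembl identifier, in a table of raw read counts for 53465 genes. All 10 were among the 16426 genes that passed the filter on low counts. The table came from bulk RNA-seq of pinna prominences, the forming outer ears, micro-dissected from mouse embryos at E14.5. The 5 wild-type (WT) embryos were compared with 5 mEC1dup/dup embryos. The latter are homozygous for a CRISPR/Cas9 knock-in that puts a further copy of mEC1, an enhancer of the homeobox gene Hmx1, next to the resident copy on each allele, on a C57BL/6J background. Each library came from a different embryo, and replicates were siblings taken from separate litters, without a record of which library belongs to which litter. The comparison asks how the desmosome genes differ in a pinna in which the dose of this enhancer is raised.

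Desmosomes are the spot-like junctions that tie the keratin filaments of neighbouring epithelial cells together. Desmogleins and desmocollins are cadherins that span the membrane and bind those of the next cell. Inside the cell their tails bind plakoglobin (Jup) and plakophilins such as Pkp1, and desmoplakin (Dsp) links this plaque to the keratins. In stratified skin the isoforms are layered: Dsg2 and Dsc2 are typical of simple epithelia and basal cells, Dsg3 and Dsc3 of the lower layers, and Dsg1 and Dsc1 of the differentiating upper layers. The mouse has several copies of Dsg1, of which Dsg1a and Dsg1b are members here.

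The promoters of Dsp and Jup are shown because these plaque genes, which lie on different chromosomes, were the members with the most reads (values below). Each run is the 300 bases from 250 before to 50 after the start of the gene's canonical GENCODE transcript, read from the GRCm39 genome 5′ to 3′ on the gene's own strand. Capitals mark the GC box GGGCGG on either strand, and in Dsp also a match to the AP-2 pattern GCCNNNGGC that overlaps one of the GC boxes.
Dsp, chr13:38334980-38335279, plus strand: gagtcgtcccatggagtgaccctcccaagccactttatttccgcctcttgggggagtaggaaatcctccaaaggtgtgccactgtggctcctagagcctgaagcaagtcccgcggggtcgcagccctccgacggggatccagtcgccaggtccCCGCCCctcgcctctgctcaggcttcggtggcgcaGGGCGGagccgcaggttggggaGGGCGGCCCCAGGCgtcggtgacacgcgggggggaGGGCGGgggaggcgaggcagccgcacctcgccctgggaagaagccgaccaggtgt
Jup, chr11:100288612-100288911, minus strand: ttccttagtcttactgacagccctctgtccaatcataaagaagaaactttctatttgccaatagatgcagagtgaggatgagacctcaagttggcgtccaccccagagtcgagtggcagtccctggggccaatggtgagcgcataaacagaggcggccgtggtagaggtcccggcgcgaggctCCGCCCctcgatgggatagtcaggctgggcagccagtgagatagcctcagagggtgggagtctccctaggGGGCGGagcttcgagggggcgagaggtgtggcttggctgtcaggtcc

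The GC box occurred 4 times in the Dsp promoter and 2 times in that of Jup. Among the 9 members whose promoters were searched 4 held it, those of Dsp, Jup, Dsc2 and Dsc3, compared with 42.5% of the 21757 protein-coding promoters of the same length. CAAGTG, the core letters bound by HMX homeodomain proteins, was found in 2 members, Dsc1 and Dsg1a, and in 14.3% of all promoters. The Grainyhead-like pattern AACNGGTT was found in Dsg1b alone among the members and in 2.07% of all promoters. The AP-2 pattern GCCNNNGGC was found in Dsc1 and Dsp and in 16.9% of all promoters, and the AP-1 pattern TGANTCA in 0 members and 7.15% of all promoters. All searches covered both strands, and a match of letters is not a measured binding site.

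Hmx1 checks the genotype labels. Its counts ran from 376 to 526 over the WT libraries and from 976 to 1356 over the mEC1dup/dup libraries, so the genotypes lay apart. Library totals ranged from 17461544 to 18462073 counts. Other features of the libraries also followed genotype: Xist, the RNA of the inactive X chromosome, had 2 to 5 counts in the WT libraries, 2096 to 19040 in mEC1dup/dup replicates 1 to 4 and 0 in mEC1dup/dup replicate 5. Embryonic globins made up 18.4% to 23.3% of all globin counts in WT and 32.5% to 35.6% in mEC1dup/dup libraries. The stage of the blood therefore cannot be told apart from genotype in any of these embryos, and sex cannot in most of them. The part of sex and blood stage in the differences below was not tested separately from genotype.

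Of the 10 desmosome genes, 7 were called lower in mEC1dup/dup than in WT pinna and 0 were called higher. Dsc1, the desmocollin of differentiating cells, changed most, to 13.5% of its WT level, and Dsg1a and Dsg1b fell to 32.5% and 33.9%. Dsg3, Dsc3, Pkp1 and Dsp kept 48.5% to 60.7% of the WT level. Dsc2, Jup and Dsg2 did not pass the threshold and stood at 62.4%, 79.4% and 89.9%. A call required an adjusted p (Benjamini-Hochberg over all tested genes, edgeR's quasi-likelihood test) no higher than 0.05 and an average log2 CPM no lower than 1, CPM being counts scaled to a common library size. By the same rule 1.81% of the 16426 tested genes were called lower and 0.834% higher. All 10 fitted log2 fold changes were negative, with a median of -0.88, where the median over all tested genes was -0.00415. None of the members was higher at an unadjusted p under 0.05, and DESeq2 and limma-voom also called 0 higher. In whole pinna RNA, fewer epithelial cells and less of these RNAs per epithelial cell cannot be told apart.

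**Figure D1:**
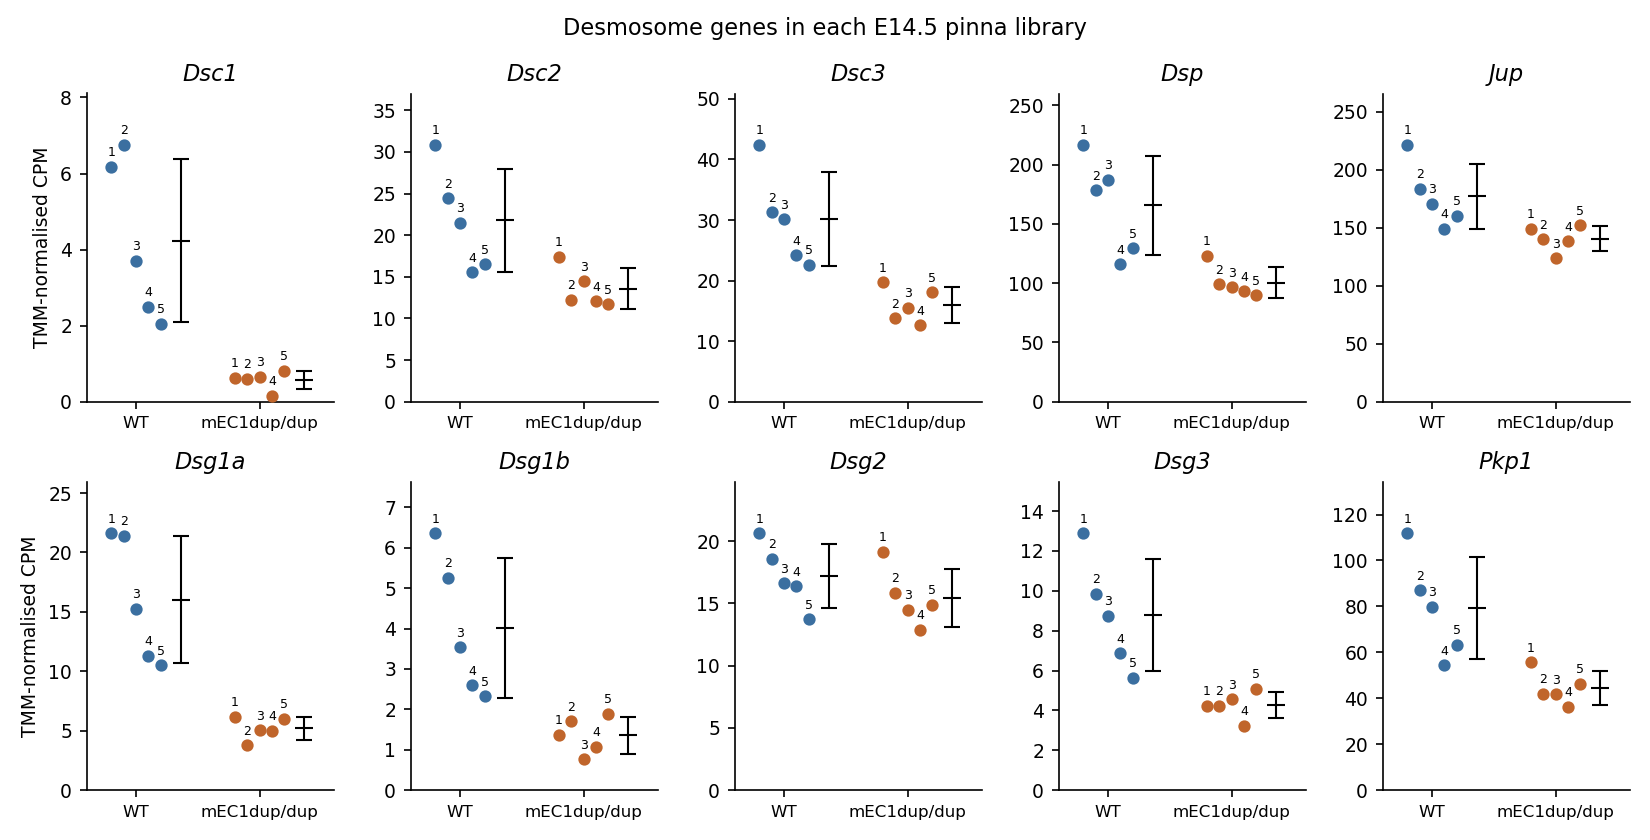
TMM-normalised CPM (linear axes from 0) of the 10 desmosome genes in each library, with points numbered by replicate and, beside them, the mean and SD (n = 5 per genotype). The genotypes do not overlap for Dsc1, Dsc3, Dsg1a, Dsg1b and Dsg3, whereas the ranges of Dsg2 lie almost on top of each other.

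Dsc1 had 6.18, 6.75, 3.70, 2.49 and 2.05 normalised CPM in WT replicates 1 to 5. It had 0.629, 0.606, 0.652, 0.162 and 0.812 in mEC1dup/dup replicates 1 to 5. The highest knock-in library was thus well below the lowest WT library, although WT itself spread widely (4.24 ± 2.14, SD, n = 5). The log2 fold change was -2.87 (SE 0.41, adjusted p = 0.00446, edgeR). These values rest on few reads, 37 to 122 in WT and 3 to 15 in mEC1dup/dup libraries.

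Dsc3, the desmocollin of basal and lower layers, had 42.4, 31.3, 30.1, 24.2 and 22.6 CPM in WT and 19.8, 13.8, 15.5, 12.6 and 18.03 in mEC1dup/dup libraries. No knock-in library reached the lowest WT value, and the log2 fold change was -0.92 (SE 0.17, adjusted p = 0.0126, edgeR). Dsc2, the most widely expressed desmocollin, had 30.9, 24.4, 21.5, 15.6 and 16.5 CPM in WT and 17.4, 12.2, 12.1 and 11.7 in mEC1dup/dup replicates 1, 2, 4 and 5, with replicate 3 (267 counts) between replicates 1 and 2. The genotypes met at mEC1dup/dup replicate 1, which lay above WT replicates 4 and 5. Its log2 fold change of -0.68 (SE 0.18) missed the threshold, with an adjusted p of 0.0620 by edgeR.

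Among the desmogleins, the copies of Dsg1 changed most. Dsg1a had 21.6, 21.4, 15.3, 11.3 and 10.5 CPM in WT and 6.17, 3.80, 5.05, 5.02 and 6.01 in mEC1dup/dup libraries. The ranges lay apart, and the log2 fold change was -1.62 (SE 0.22, adjusted p = 0.00327, edgeR). Dsg1b, expressed at a lower level, had 6.36, 5.26, 3.54, 2.60 and 2.33 CPM in WT and 1.37, 1.71, 0.760, 1.08 and 1.90 in mEC1dup/dup libraries. The ranges did not overlap here either, with a log2 fold change of -1.55 (SE 0.32, adjusted p = 0.0224, edgeR). The 2 genes are near copies: 13.3% of the 100-base windows of Dsg1a exons also occur in Dsg1b and 22.2% of those of Dsg1b in Dsg1a, so reads from these stretches could be lost or assigned to either gene. Dsg1c, a further copy, totalled 13 counts over the 10 libraries.

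Dsg3, the desmoglein of the lower layers and the antigen of pemphigus vulgaris, had 12.9, 9.85, 8.76, 6.87 and 5.65 CPM in WT and 4.23, 4.24, 4.56, 3.24 and 5.09 in mEC1dup/dup libraries. All knock-in values were below all WT values, and the log2 fold change was -1.04 (SE 0.21, adjusted p = 0.0187, edgeR). Dsg2 was the desmoglein that did not pass. It had 20.6, 18.6, 16.6, 16.4 and 13.7 CPM in WT and 19.1, 15.9, 12.9 and 14.9 in mEC1dup/dup replicates 1, 2, 4 and 5, with replicate 3 (267 counts) between replicates 4 and 5. The ranges overlapped over most of their length. Its log2 fold change was -0.15 (SE 0.12, adjusted p = 0.585, edgeR).

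The plaque genes were the most abundant members and changed less than Dsc1 or the Dsg1 copies. Desmoplakin (Dsp) had 216.7, 178, 187, 116 and 129 CPM in WT and 123, 99.3, 96.6, 93.4 and 90.0 in mEC1dup/dup libraries. Only mEC1dup/dup replicate 1 reached into the WT range, above WT replicate 4, and the log2 fold change was -0.72 (SE 0.15, adjusted p = 0.0235, edgeR). Plakophilin 1 (Pkp1) had 112, 87.0, 79.8, 54.4 and 63.4 CPM in WT and 55.8, 41.9, 41.7, 36.2 and 46.4 in mEC1dup/dup libraries. The same knock-in library lay just above WT replicate 4, and the log2 fold change was -0.84 (SE 0.17, adjusted p = 0.0208, edgeR).

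Plakoglobin (Jup), which also serves adherens junctions, had 221, 183, 171, 149 and 160.5 CPM in WT and 149, 140, 124, 138 and 152 in mEC1dup/dup libraries. The ranges met at their edges, where mEC1dup/dup replicate 5 lay above WT replicate 4. Its log2 fold change of -0.33 (SE 0.09) was small and missed the threshold (adjusted p = 0.0757, edgeR). The calls of Dsc2 and Jup were close to it: both passed with the Wald test of DESeq2, with limma-voom on quality weights and without the filter on low counts.

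In 5 of the 10 members each mEC1dup/dup library was below each WT library, a pattern that 2.75% of all tested genes showed. The members ranked the WT embryos much alike, and no single mEC1dup/dup embryo was highest or lowest throughout. WT replicate 1 was the highest WT library in 9 members (WT replicate 2 in Dsc1), and the lowest was replicate 5 in 6 members and replicate 4 in the other 4. Among mEC1dup/dup libraries, replicate 1 was highest in 6 members and replicate 5 in 4, and the lowest was replicate 4 in 5 members, replicates 3 and 5 in 2 each and replicate 2 in 1. The replicate without Xist counts, mEC1dup/dup 5, lay below each WT library in 8 of 10 members, as it did in 19.9% of all tested genes. Set alone against the 5 WT libraries, a comparison chosen after the data were seen, it gave a negative log2 fold change in 10 members. No gene was called in either direction in that fit, whose spread comes from the WT libraries alone, and 1 library cannot show what holds for its genotype.

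Not every call was stable when a library was left out. Dsc1, Dsc3 and Dsg1a were called in each of the 10 fits without 1 library, Dsg3 in 7, Pkp1 in 6, Dsg1b in 5 and Dsp in 3. The number of members called fell from 7 to 3 without WT replicate 2, without mEC1dup/dup replicate 2 or without mEC1dup/dup replicate 3, and to 4 without mEC1dup/dup replicate 4. All 10 log2 fold changes stayed negative in these fits. With Xist as a covariate the 10 changes remained negative, but 0 members and only 1 gene overall were called lower. An unadjusted p under 0.05 was seen in 8 members and, in the same direction, in 5.67% of all tested genes. The log2 fold changes were then -2.74 for Dsc1, -1.50 for Dsg1a, -1.27 for Dsg1b, -0.93 for Dsg3 and -0.84 for Dsc3. They were -0.86 for Pkp1, -0.90 for Dsp, -0.93 for Dsc2, -0.26 for Dsg2 and -0.25 for Jup. The SE of Dsc1 was 0.70 in this fit and 0.41 without the covariate. With the share of embryonic globins, which does not overlap between the genotypes, in the model, 0 members were called and 9 of 10 estimates turned positive.

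**Figure D2:**
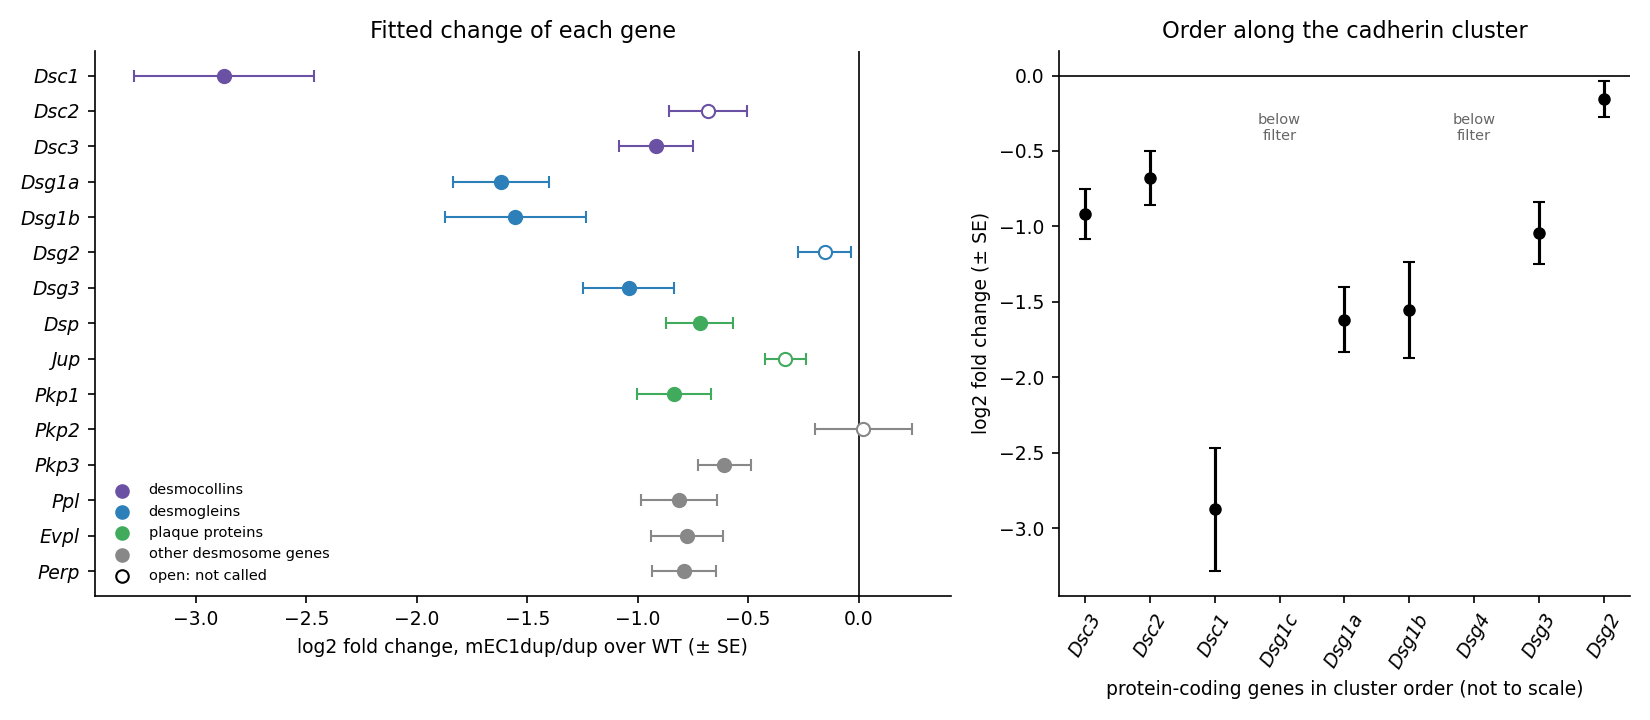
Left, log2 fold change (mEC1dup/dup over WT, ± SE, edgeR) of the 10 members and of the tested genes among 8 further desmosome genes, with open symbols for genes that were not called. Right, the same values in the order of the genes along the cadherin cluster: Dsc1, Dsg1a and Dsg1b in the middle are furthest below 0, and Dsg2 at the end is nearest to it.

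The 7 cadherin genes stand in 1 cluster on chromosome 18 (GRCm39, chr18:20093987-20737581, 643.595 kb). It holds 9 protein-coding genes in the order Dsc3, Dsc2, Dsc1, Dsg1c, Dsg1a, Dsg1b, Dsg4, Dsg3 and Dsg2, the desmocollins on the minus strand and the desmogleins on the plus strand. The size of the change followed no single trend along it: the log2 fold changes in this order were -0.92 for Dsc3, -0.68 for Dsc2, -2.87 for Dsc1, -1.62 for Dsg1a, -1.55 for Dsg1b, -1.04 for Dsg3 and -0.15 for Dsg2. Dsg4, a desmoglein of the hair follicle, had 0 counts in all 10 libraries. The plaque genes lie elsewhere, Dsp on chromosome 13 (38335230 to 38382553), Jup on chromosome 11 (100259784 to 100291103) and Pkp1 on chromosome 1. Transcripts of the opposite strand overlap 1.53% to 7.33% of the exonic bases of Dsg3, Dsg2, Dsg1a, Dsp and Dsg1b, and whether strand was used in counting is not given in the sources used here.

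Levels can be compared between genes only per length, here as CPM per kb of exon. In WT libraries the plaque genes led, with 19.9 ± 3.13 for Jup, 17.1 ± 4.32 for Dsp and 15.8 ± 4.44 for Pkp1 (SD, n = 5), and their ranges overlapped. Next came Dsc3 at 5.56 ± 1.44 and Dsc2 at 4.004 ± 1.15, then Dsg1a at 2.82 ± 0.94. Dsg2 at 1.79 ± 0.27, Dsg3 at 1.26 ± 0.40, Dsg1b at 1.01 ± 0.44 and Dsc1 at 0.839 ± 0.42 were lowest. The step from Pkp1 to Dsc3 was the only one in this order at which neighbouring genes had ranges that did not overlap. In mEC1dup/dup libraries the order was the same except that Dsg2, at 1.61 ± 0.24, stood above Dsg1a, at 0.916 ± 0.17, with no overlap, and Dsc1 was last at 0.113 ± 0.048. With the longest transcript as the length, Jup rose to 42.7 ± 6.72 in WT and stood apart from Dsp, and Dsg2 at 2.91 ± 0.44 was level with Dsg1a in WT, so the WT rank of these genes depends on the length used.

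The make-up of the desmoglein pool therefore differed between genotypes. Dsg1a and Dsg1b together held 57.5%, 60.3%, 54.5%, 49.5% and 52.1% of the desmoglein level per kb in WT replicates 1 to 5 and 35.5%, 32.7%, 33.3%, 39.0% and 40.2% in mEC1dup/dup replicates 1 to 5. Dsg2 went the other way, from 22.9% to 32.0% in WT to 40.7% to 49.5% in mEC1dup/dup libraries. Neither pair of ranges overlapped. Of the Dsg1 copies, Dsg1a alone also lay apart (37.2% to 44.6% in WT and 19.9% to 29.8% in mEC1dup/dup libraries), whereas the Dsg1b share overlapped (12.3% to 17.03% and 5.90% to 12.8%). The Dsg3 share was alike at 18.2% ± 1.22 and 17.6% ± 2.20 (SD, n = 5). The ratio of Dsg2 to Dsg1a CPM, in which length plays no part in the comparison of genotypes, was 0.868 to 1.45 in WT and 2.48 to 4.17 in mEC1dup/dup libraries.

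Among the desmocollins, Dsc1 held 8.32%, 11.5%, 7.17%, 6.32% and 5.34% of the level in WT and 1.79%, 2.45%, 2.28%, 0.700% and 2.86% in mEC1dup/dup libraries. These ranges lay apart. Dsc2 held 38.5% ± 1.18 in WT and 45.1% ± 4.03 in mEC1dup/dup libraries, with overlap at mEC1dup/dup replicate 5. Dsc3 kept about the same share, 53.8% ± 2.67 and 52.9% ± 3.48. These shares are descriptions of the same reads as the fold changes above and carry no test of their own.

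**Figure D3:**
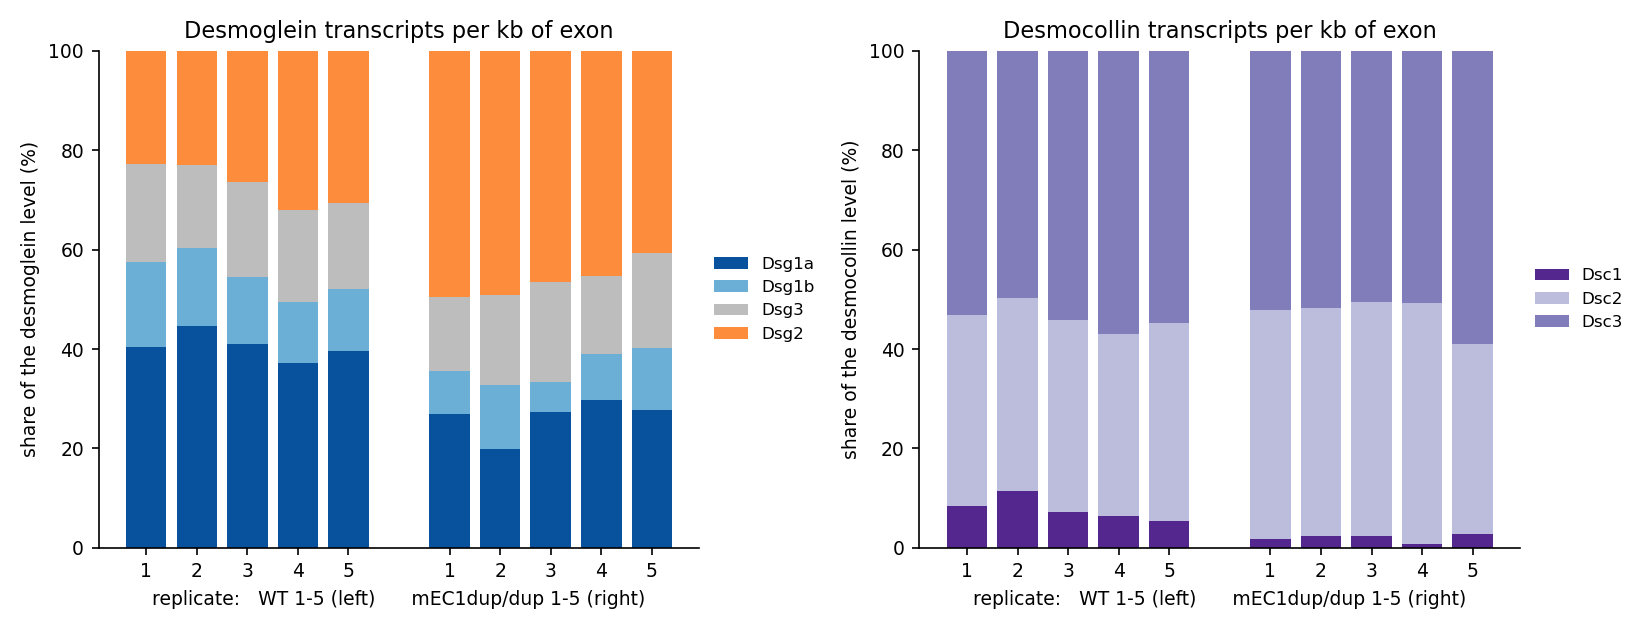
Share (%) of each desmoglein, left, and each desmocollin, right, in the summed CPM per kb of exon of its family, with 1 stacked bar per library. The Dsg2 part grows from 22.9-32.0% in WT to 40.7-49.5% in mEC1dup/dup libraries, and the Dsc1 part shrinks from 5.34-11.5% to 0.700-2.86%.

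Of 8 further desmosome genes, 5 were tested, and 4 of these were called lower and 0 higher. They were Perp, a tetraspan protein needed for desmosome assembly (157 ± 39.99 CPM in WT and 90.8 ± 11.8 in mEC1dup/dup, log2 fold change -0.79), periplakin Ppl (53.7 ± 14.6 and 30.5 ± 5.90, -0.82), envoplakin Evpl (45.8 ± 13.6 and 26.7 ± 2.83, -0.78) and plakophilin 3 Pkp3 (49.6 ± 10.5 and 32.5 ± 2.59, -0.61). Pkp2, the plakophilin of simple epithelia and heart, had 3.46 ± 0.89 and 3.51 ± 0.91 CPM and a log2 fold change of 0.02 (SE 0.22). Dsg1c, Dsg4 and Cdsn, the corneodesmosin of the horny layer, did not pass the filter.

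Other cell junction genes were set beside them. Of 11 adherens junction genes edgeR called 1 lower, the nectin Nectin4 (log2 fold change -0.52), and 0 higher, with a median log2 fold change of -0.00. At an unadjusted p under 0.05, 3 were lower and 2 higher, and DESeq2 called 1 lower and 1 higher and limma-voom 1 and 0. Nectin1 and Nectin3, with the largest p of this list, had 0.01 and -0.00. E-cadherin, Cdh1, singled out after its values were seen, had 97.1 ± 22.4 CPM in WT and 71.3 ± 7.77 in mEC1dup/dup libraries and a log2 fold change of -0.45 (SE 0.13) that did not pass (adjusted p = 0.0948, edgeR). Cdh3 and Ctnnb1 of the same list, also picked after their values were seen, did not fall. Their log2 fold changes were 0.015 (SE 0.069) and 0.109 (SE 0.033), and edgeR called neither. Of 14 tight junction genes edgeR called 0 in either direction, 2 were lower and 0 higher at an unadjusted p under 0.05, and DESeq2 called 1 lower and limma-voom 0. Their median log2 fold change was -0.14, and Cldn3, with the largest p of this list, had -0.00. Both lists were read in whole pinna RNA, where the part of their reads from epithelial cells was not measured. Their medians and counts therefore do not describe the junctions of epithelial cells alone.

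The keratins to which desmosomes attach were counted by layer. All 3 keratins of suprabasal cells were called lower, among them Krt77 (log2 fold change -3.75) and Krt1 (-1.97), and their summed level was 132.8 to 392 CPM in WT and 48.1 to 66.1 in mEC1dup/dup libraries. Of 3 basal keratins, Krt5 (-0.69) and Krt14 (-0.64) were called lower, and Krt15 (-0.50) was not. Of 6 keratins of periderm and simple epithelia edgeR and DESeq2 called 3 lower and limma-voom 1, with Krt4 (-2.28) and Krt6a (-1.51) changed most, whereas Krt8 and Krt18 had 0.06 and 0.19. Of 11 epidermal regulators, made up of transcription factors and the receptor Notch1, Grhl1 (-0.98), which regulates desmosomal cadherin genes in skin, and Zfp750 (-0.72), a factor of terminal differentiation, were called lower. DESeq2 called 3 of that list lower and limma-voom 1, 9 were lower at an unadjusted p under 0.05, and the median log2 fold change was -0.40. Klf4 (0.05) and Grhl2 (-0.18) had its largest p.

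A list of 7 pan-epithelial genes, expressed in epithelial cells of many kinds, had a lower mean in mEC1dup/dup libraries, to which its genes contributed unequally. Their mean log2 CPM was 4.54 ± 0.22 in WT and 4.22 ± 0.05 in mEC1dup/dup libraries, a difference of -0.325 (SD, n = 5, 2-sided exact permutation p = 0.00794, the smallest that 252 arrangements allow). Of these 7 genes edgeR called 1 lower, the small GTPase Rab25 (log2 fold change -0.99), limma-voom 1 and DESeq2 3, and the median log2 fold change was -0.20. Epcam and St14 had 0.04 and -0.11. Their summed level ranged from 177 to 254 CPM in WT and from 168 to 193 in mEC1dup/dup libraries, so the sums overlapped between genotypes. The mean log2 CPM did not overlap, at 4.321 to 4.872 in WT and 4.145 to 4.27 in mEC1dup/dup libraries. None of the 7 genes was at 0. The list was chosen with earlier results of these data known, and the embryonic globin share splits the libraries in the same way. The permutation p therefore does not single out genotype.

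Set against the pan-epithelial mean of the same library, the members differed in the size of their change. Dsc1 was lower by 2.31, Dsg1a by 1.23 and Dsg1b by 1.12 on the log2 scale in mEC1dup/dup than in WT libraries, each beyond the range of WT. Dsg3 (-0.66) and Dsc3 (-0.57) were also below each WT library. Pkp1 (-0.48), Dsp (-0.37) and Dsc2 (-0.32) overlapped between genotypes. Jup differed by 0.00 and Dsg2 by 0.17, so both moved about as the pan-epithelial markers did or less. With the pan-epithelial mean, which does not overlap between the genotypes, as a covariate in the fit, 0 members and 13 genes overall were called lower. The log2 fold changes were then -1.82 for Dsc1, -0.94 for Dsg1a, -0.53 for Dsg1b, -0.41 for Dsc3, -0.37 for Dsg3, -0.29 for Pkp1, -0.25 for Dsp, -0.14 for Dsc2, -0.01 for Jup and 0.11 for Dsg2, nearer to 0 than without it in all 10 members.

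**Figure D4:**
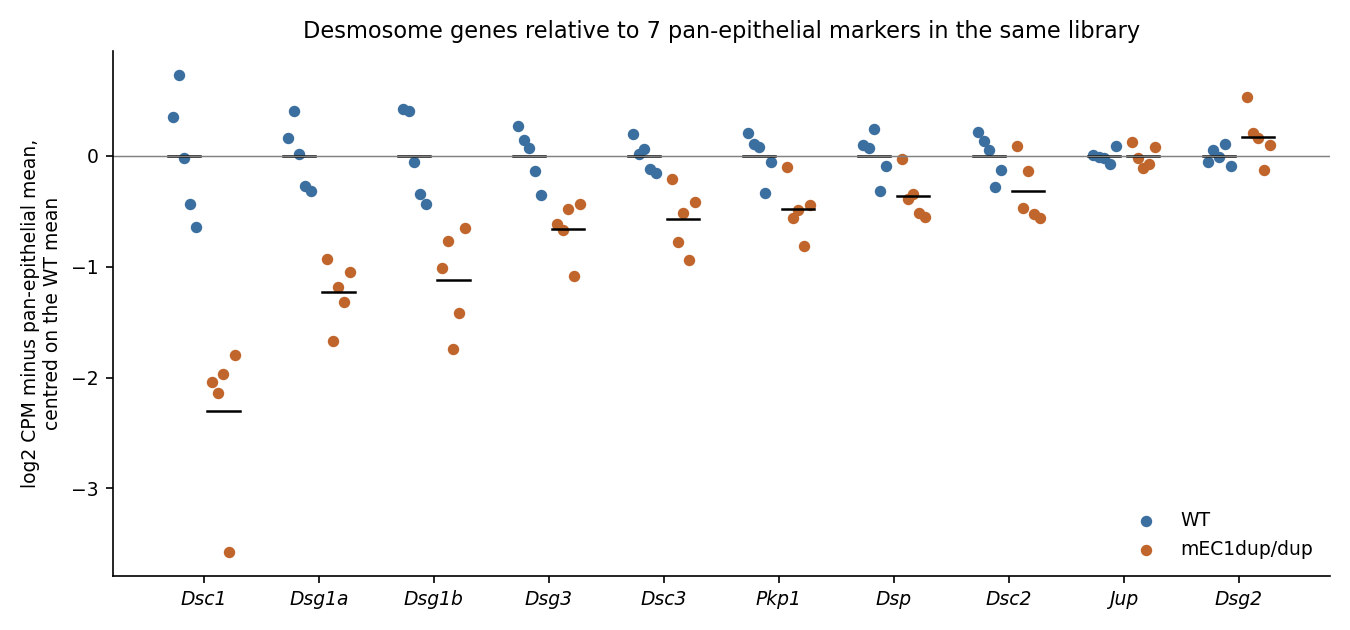
Log2 CPM of each member minus the mean log2 CPM of 7 pan-epithelial markers in the same library, centred on the WT mean of that gene, with 1 point per library and a line at each group's mean (n = 5). The knock-in points of Dsc1, Dsg1a, Dsg1b, Dsg3 and Dsc3 lie below all WT points, and those of Jup and Dsg2 do not.

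Other cell types of the dissected tissue were checked in the same way. Of 6 skeletal muscle genes 5 were called lower, among them Ckm (log2 fold change -2.25) and Tnnt3 (-1.06), and their summed level was 1255 to 1890 CPM in WT and 673 to 1101 in mEC1dup/dup libraries. Myog, a factor of early muscle cells, had 0.12. Of 6 fibroblast genes 2 were called lower, Dpt (-0.77) and Lum (-0.30), with sums of 5153 to 8802 and 5791 to 6411 CPM, while Prrx1 and Twist2 had 0.07 and -0.18.

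By edgeR 0 of the genes of endothelium (6), heart muscle (2 tested of 4), cartilage (6), melanoblasts (5), Schwann cells (5) and macrophages (5) were called in either direction. At an unadjusted p under 0.05, 1, 1, 3, 2, 1 and 1 of them were lower and 0 higher, and DESeq2 and limma-voom also called 0. The genes with the largest p had log2 fold changes of 0.01 for Cdh5 and 0.04 for Cldn5 in endothelium, -0.29 for Tnni3 and -0.61 for Myh6 in heart, and -0.23 for Col9a1 and -0.30 for Col2a1 in cartilage. They were Tyrp1 (-0.30) and Pmel (-0.15) in melanoblasts, Sox10 (0.02) and Foxd3 (0.04) in Schwann cells, and Csf1r (-0.01) and C1qa (0.02) in macrophages. The median log2 fold change was -0.02 in endothelium, -0.45 in heart, -0.42 in cartilage, -0.26 in melanoblasts, -0.08 in Schwann cells and -0.01 in macrophages. The summed levels of these lists overlapped between genotypes, at 432 to 535 CPM in WT and 448 to 504 in mEC1dup/dup libraries for endothelium, which has a Dsp-containing junction of its own. Cartilage genes summed to 4818 to 7927 and 2129 to 6289, melanoblast genes to 60.1 to 83.7 and 59.3 to 70.7, Schwann cell genes to 191 to 241 and 174 to 232, and macrophage genes to 133 to 154 and 120 to 154. The heart genes Nppa and Myl7 were at or near 0, and the sum of the heart list was 4.45 to 7.42 and 3.64 to 4.60. Heart muscle is another tissue that uses Dsp, Jup, Dsc2 and Dsg2. The part of these cell types in the desmosome values was not tested.

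The genes most like the members were found from deviations within each genotype, which leave out the difference between genotypes. For each of 13983 other genes, Pearson's r was taken over the 10 libraries between its deviations from the genotype means and the mean deviation of the 10 members. The 10 highest were Htra1 (0.981), Krt10, Sfn, Krt77, Emp2, Krt17, Krt1, Ppl, Ssh3 and Asprv1 (0.954), against a median r of -0.005 over all compared genes. They include suprabasal keratins, the stress-related keratin Krt17, the keratinocyte 14-3-3 protein Sfn, the skin protease Asprv1 and the desmosomal plakin Ppl. Of these 10, 8 were also called lower between genotypes, and Krt17 (log2 fold change -0.55) and Ssh3 (-0.22) were not. Among all tested genes 1.81% were called lower. The r values share libraries and genes' counts and are given as a description.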

How the data were processed

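The deposited values are raw counts per gene, which the authors obtained with featureCounts from paired-end reads after trimming by fastp and alignment by STAR to the GRCm39 build, without scaling. The annotation release, the use of strand and the handling of reads with several matches are not given in the sources used here. The labels and the study's methods name different library kits, both with selection of poly-A RNA. Columns were mapped to genotype and replicate through the sample labels. GENCODE (GRCm39) gave gene symbols and positions for 49355 of 53465 genes.

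Counts were filtered with filterByExpr by genotype, normalized by TMM and tested with the quasi-likelihood test of edgeR (version 4.0.16, R version 4.3.3), in a model of genotype alone. A standard error is the size of the log2 fold change divided by the square root of F. Log2 CPM of single libraries used a prior count of 2. The biological coefficient of variation was 0.113. No 2 libraries of a genotype were copies of each other. Totals of 17461544 to 18462073 counts limit the precision of low genes, and spread and p-values cover these embryos only. The table had 0 unused columns of samples.

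The members and all gene lists were chosen with earlier results of these data known. Named genes are the members, the called genes among other desmosome genes, the 2 called genes with the largest change and the 2 genes with the largest p among those not called (where present) of each other list, the 10 genes most like the members (average log2 CPM of at least 1) and Hmx1. Cdh1, Cdh3 and Ctnnb1 were named besides, after their values were seen. Motifs were searched in promoters of 21757 protein-coding genes. The promoter of 1 member and 1 gene that the rule names are not reported here. The motif list was changed once after its matches were seen, when the GC box replaced 2 shorter or looser patterns.

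Alternatives were DESeq2 (version 1.42.0) size factors and Wald test, upper quartile and total count scaling, limma-voom (limma version 3.58.1) with and without quality weights, other filters and thresholds, a replicate block, covariates and each library left out in turn. On simulated counts with 1 dispersion for all genes, the fit called 200 of 200 genes changed by a log2 fold change of 1 among 16313 tested, and 12 unchanged genes. The changed genes were drawn only from above a minimum mean CPM that Dsc1 and Dsg1b do not reach. The simulation therefore does not show how often changed genes at their level are called. Figures were drawn with matplotlib version 3.10.9.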

Additional observations from a re-analysis of the deposited data

Results flagged for a closer look

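Of 36 groups of 5 libraries checked, 4 held a library whose gap to its nearest neighbour was at least 0.71 of the group's range, and chance gives this in about 1 of 20 groups. The Dsp level of mEC1dup/dup replicate 1, 123 CPM against 90.0 to 99.3 in the other knock-in libraries, had a gap of 0.721 of the range. In mEC1dup/dup replicate 5 the Dsc2 share of the desmocollin level was low, at 38.2% (gap 0.740), and the Dsc3 share high, at 59.0% (gap 0.802), and as shares of 1 total these are not independent. The Dsg1a share of the desmoglein level in mEC1dup/dup replicate 2, 19.9%, had a gap of 0.71.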

How the results depend on the processing

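The number of members called lower, 7, was the same with DESeq2 size factors, upper quartile or total count scaling and limma-voom. It was 9 with the Wald test of DESeq2, with quality weights and without the filter, and 6 with at least 10 counts required in every library, which removes Dsc1. It was 2 at an adjusted p of at most 0.01. It was 0 with Xist, the embryonic globin share or the pan-epithelial mean as a covariate, and 0 for mEC1dup/dup replicate 5 alone against WT, an alternative chosen after seeing the data. It ranged from 3 to 9 without 1 library. No member was called higher under any alternative run. With the Xist covariate the 10 log2 fold changes were negative, from -2.74 for Dsc1 to -0.25 for Jup. With the globin covariate 9 log2 fold changes were positive: 0.80 for Dsc2, 0.82 for Dsc3, 0.46 for Dsg1a, 1.56 for Dsg1b, 0.48 for Dsg2, 0.96 for Dsg3, 0.82 for Dsp, 0.80 for Jup and 0.95 for Pkp1 (Dsc1, -0.23). In that fit 1 member, Jup (SE 0.25), had an unadjusted p under 0.05. With the pan-epithelial covariate Dsg2 had 0.11. The cause of these reversals was not tested. Same-numbered libraries of the 2 genotypes deviated together with correlations of -0.06 to 0.34, over 0.1 in 4 of 5 pairs, and 2 of 5 WT libraries correlated best with their own number, so the numbers were not taken as pairs. With the replicate block 9 members were called lower, Dsc2 (adjusted p = 0.00493, edgeR) and Jup (0.0269) being added, as were 487 genes in place of 297. Over all genes, 297 were called lower and 137 higher, against 507 and 315 by DESeq2, 584 and 309 with quality weights, 1 and 2 with Xist, 0 and 0 with the globin share (792 at an unadjusted p under 0.05) and 13 and 2 with the pan-epithelial mean, and lower calls ranged from 120 to 476 without 1 library. Few reads limit Dsc1 and Dsg1b most.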
